A study of Mus musculus with 9 samples.

Results

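DR500, a line of 4T1 mouse mammary carcinoma cells that survived doxorubicin, was compared with parental 4T1 cells over all measured genes. The comparison rests on 6 of the 9 arrays of the series, 3 of DR500 and 3 of untreated 4T1. Genes were represented by the probe sets listed with exactly 1 gene symbol, the brightest by its mean over the 9 arrays, which gave 19938 genes.

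4T1 is an established, metastatic mammary adenocarcinoma line. The study selected survivors of it, DR500 with doxorubicin and MR20 with methotrexate, and asked how the survivors' gene expression had changed. The paper calls both lines drug resistant. The inhibitory doxorubicin dose it reports for DR500 in culture, however, lies close to that for 4T1. According to the labels, doxorubicin was raised up to 500 ng/ml between day 7 and day 14, in a selection of up to 2 weeks that ended when colonies were visible, while the paper describes weekly steps and a recovery without drug for 2 weeks. The source and treatment labels of the DR500 arrays name methotrexate, but their treatment protocol and the paper name doxorubicin, which is the drug given here. The 4T1 arrays came from untreated cells that had been cultured in parallel with the methotrexate selection, and are not labelled as a parallel control of the doxorubicin selection. Each line was sampled as RNA of 3 wells, and p-values therefore measure the spread between wells of a line, not between independent selections. DR500 is a single selected population, so an effect of the drug and a difference of the surviving founder cells cannot be told apart. Array batches were not given, so batch and line cannot be told apart.

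Doxorubicin is an anthracycline that inserts into DNA and traps topoisomerase II on it, which leaves breaks, and its quinone ring can be cycled or reduced by cellular enzymes. Pumps of the ABC family export it, and aldo-keto and carbonyl reductases turn it into alcohols. Carcinoma cells of epithelial origin are held together by tight, adherens and desmosomal junctions, and can lose these junctions while they gain contractile and migratory properties, a change known as epithelial-mesenchymal transition (EMT).

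All values are log2 expression values after robust multi-array normalization (RMA), a scale on which 1 unit is a 2-fold difference. Medians over all probe sets lay between 6.24 and 6.38 in the 9 arrays, and no 2 arrays held identical values. Deviations from the line mean had a root mean square of 0.148 in DR500 1, the highest, and 0.0751 to 0.122 in the other arrays. Of the markers of mammary carcinoma cells, Krt8 was 13.46, 13.42 and 13.34 in the 4T1 arrays and 13.53, 13.38 and 13.39 in the DR500 arrays, and Krt18 was 12.999, 12.99 and 12.96 in the 4T1 arrays and 12.62, 12.56 and 12.70 in the DR500 arrays, both among the brightest genes. Log2 fold changes below are DR500 minus 4T1, with the standard error (SE) of the limma fit over 3 arrays of each line. The words "rose" or "fell" stand for a Benjamini-Hochberg adjusted p under 0.05 over all genes. The other markers chosen for mammary carcinoma cells, Krt7 (-5.67), Epcam (-4.19), Cdh1 (-3.84) and Krt14 (-2.58), all fell.

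In total 4034 genes rose, 20.2% of those tested, and 4239 fell, 21.3%. Beyond 2-fold, 492 genes rose (2.47%) and 617 fell (3.09%). Differences over 10-fold were reached by 28 genes that rose and 37 that fell. The arrays of both lines did not overlap in 5128 genes that were higher and 4866 that were lower in DR500. The median log2 fold change of all genes was 0.07. The lists of genes below are therefore read against a median near 0 and shares of about 20% in either direction. Shares were higher among brighter genes. Of 7847 protein-coding genes with a mean log2 value above 8, 30.9% rose and 37.7% fell. Lists of mostly bright genes can therefore exceed 20% without standing out. All gene lists were counted at the same threshold.

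The largest rise was that of F5, which encodes coagulation factor V. Its values were 5.15, 5.005 and 4.94 in the 4T1 arrays and 11.09, 11.03 and 11.19 in the DR500 arrays, a 67.3-fold rise (log2 fold change 6.07 ± 0.10, adjusted p = 7.98e-11). Steap4, a metalloreductase of the cell membrane that is induced in inflammation, was 6.53, 6.54 and 6.57 in the 4T1 arrays and 11.66, 11.69 and 11.68 in the DR500 arrays, a 35-fold rise (adjusted p = 3.07e-11). Lifr, the receptor of leukemia inhibitory factor, was 5.95, 5.86 and 6.15 in the 4T1 arrays and 10.67, 10.76 and 10.84 in the DR500 arrays, or 27.3-fold higher in DR500 (adjusted p = 7.90e-10). The largest rises and falls were picked among genes whose arrays did not overlap between the lines. In F5, Steap4 and Lifr the 4T1 values lay near or below the array median. Mustn1, a small nuclear protein of the musculoskeletal system, was 6.98, 6.88 and 6.85 in the 4T1 arrays and 11.28, 11.43 and 11.66 in the DR500 arrays, a 23.4-fold rise. Cd53, a tetraspanin known from leukocytes, was 4.61, 5.05 and 4.82 in the 4T1 arrays and 8.95, 9.35 and 9.21 in the DR500 arrays, a 20.3-fold rise. A630010A05Rik was the exception in evenness, at 3.64, 3.64 and 3.48 in 4T1 and 6.14, 8.55 and 8.61 in DR500. Here DR500 1 lay well below the other two arrays of its line, and without it the log2 fold change was 4.99. Saa3, Lrg1, Saa2, Prl2c5, Lbp, Ly6g2, Olfml3, Ifitm6 and Lilrb4a completed the 15 largest rises, at log2 fold changes between 3.90 and 5.62. Saa2, Prl2c5, Ly6g2 and Lilrb4a belong to families of near-identical genes, whose probes can share signal, so their values are uncertain as to the family member.

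The largest fall was that of Mal2, a protein of apical transport in polarized epithelia. It was 11.14, 11.23 and 11.29 in the 4T1 arrays and 5.31, 5.11 and 5.06 in the DR500 arrays, or 66.7-fold lower in DR500 (log2 fold change -6.06 ± 0.09, adjusted p = 4.37e-11). Rnf130, a ubiquitin ligase with a RING domain, was 10.75, 10.75 and 10.79 in the 4T1 arrays and 5.15, 4.82 and 4.77 in the DR500 arrays, a 57.6-fold fall (adjusted p = 6.94e-11). Lcp1, the actin-bundling protein plastin that leukocytes and many carcinomas make, was 10.22, 10.22 and 10.10 in the 4T1 arrays and 5.56, 5.54 and 5.07 in the DR500 arrays, 27.7-fold lower (adjusted p = 7.45e-10). These genes went from among the brighter genes of 4T1 to values below the array median in DR500. Serpinb5, which encodes the serpin maspin, was 9.05, 8.999 and 9.25 in the 4T1 arrays and 4.23, 4.18 and 4.55 in the DR500 arrays, and Fermt1, which encodes the integrin activator kindlin-1, was 10.05, 9.97 and 10.05 in the 4T1 arrays and 5.13, 5.29 and 5.70 in the DR500 arrays. Kcnk1, a potassium channel, was 11.02, 10.95 and 10.96 in the 4T1 arrays and 6.78, 6.40 and 6.16 in the DR500 arrays. The 15 largest falls also held Cldn4, Krt7, Tmprss11e, Tmem54, Esrp1, Rab25, Slc44a3, Lad1 and Mpzl2, and ended at a log2 fold change of -4.39.

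**Figure D1:**
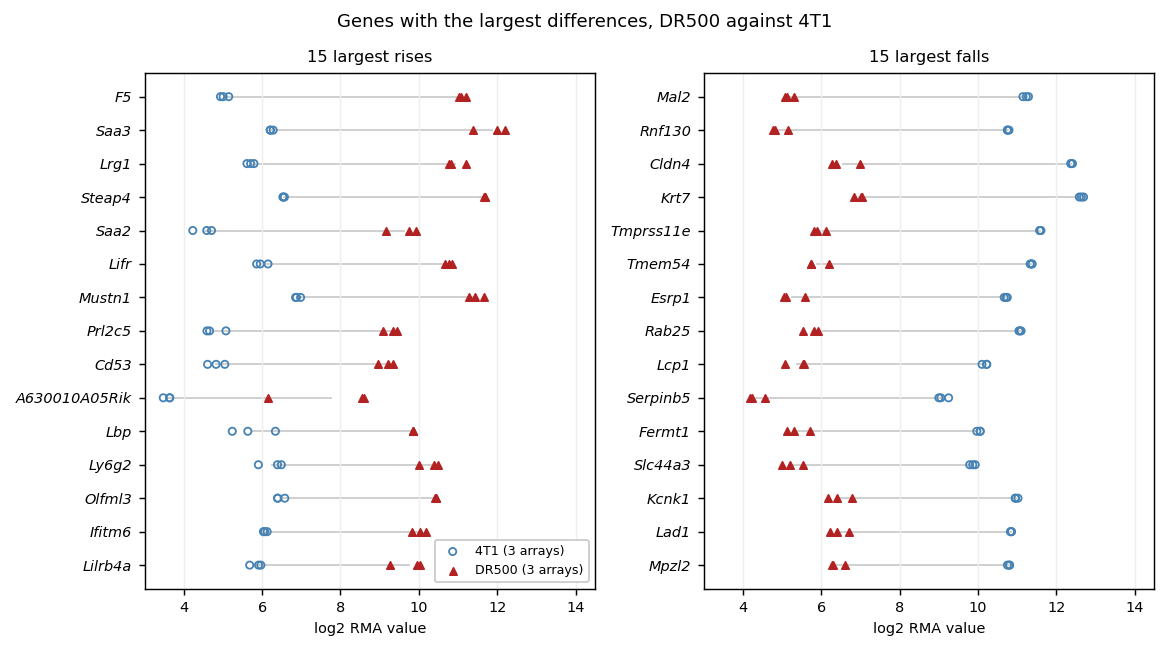
Log2 RMA values (x axis) of the 15 genes with the largest rises (left) and the 15 with the largest falls (right), with open circles for the 3 4T1 arrays and triangles for the 3 DR500 arrays; a grey line joins the means. The genes were picked among those whose arrays do not overlap between the lines, and A630010A05Rik is the gene whose DR500 arrays spread most.

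Most junction genes fell. Of 41 measured tight and adherens junction genes, 23 fell (56.1%, against 21.3% of all genes) and 6 rose, with a median log2 fold change of -0.32 against 0.07 over all genes. The claudins Cldn4 (-5.84), Cldn3 (-4.32) and Cldn7 (-3.78), which form the seal of tight junctions, were among the largest falls, with the adhesion molecule Epcam (-4.19) and the small GTPase Rab25 (-5.32). Cdh1, which encodes E-cadherin, was 11.10, 11.03 and 11.02 in the 4T1 arrays and 7.04, 7.34 and 7.23 in the DR500 arrays, a 14.3-fold fall (adjusted p = 3.05e-10). The tricellular junction protein Marveld2 (-2.24), the polarity protein Pard6b (-2.21) and occludin, Ocln (-1.04), fell as well. Several cytoplasmic partners of the cadherins rose. Ctnnd1, which encodes p120 catenin, was 10.72, 10.70 and 10.71 in the 4T1 arrays and 11.29, 11.27 and 11.36 in the DR500 arrays, a 1.51-fold rise (adjusted p = 1.36e-05). Beta-catenin, Ctnnb1 (0.29), and plakoglobin, Jup (0.29), rose by smaller amounts, and Ctnna1 (0.03) and Tjp1 (0.005), which encode alpha-catenin and the scaffold ZO-1, did not pass the test.

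Of 22 measured desmosome and hemidesmosome genes, 9 fell (40.9%) and 2 rose, with a median log2 fold change of 0.009. Of the 15 genes of this list outside chromosomes 8, 10, 18 and 19, which are described further on, 5 fell. The desmosomal cadherin Dsg2 was 8.33, 8.19 and 8.10 in the 4T1 arrays and 4.99, 4.79 and 4.99 in the DR500 arrays, a 9.74-fold fall (adjusted p = 9.36e-10), and desmoplakin, Dsp (-2.12), plakophilin Pkp2 (-1.87) and the p63 target Perp (-2.57) fell by over 2-fold. Of the laminin-332 chains, Lamb3 (-2.77) and Lama3 (-1.69) fell. Of the integrin chains in this list, Itga6 (0.40) rose and Itgb4 (0.004) did not pass the test. The integrin chains Itga3 (-0.57) and Itgb1 (-0.52), counted in another list, fell. Among 14 keratins, 6 fell and only Krt23 rose, by 0.34 on the log2 scale from a mean of 5.18. Krt7 fell most, by 51.1-fold, followed by the basal keratin Krt14 (-2.58), Krt19 (-2.37), Krt80 (-1.63) and Krt17 (-1.18). Krt8, the main luminal type II keratin, had a log2 fold change of 0.03 ± 0.06 (adjusted p = 0.758), and its partner Krt18 fell by only 1.28-fold. Krt8 and Krt18 were thus still bright in DR500, while Krt7, at 12.69, 12.64 and 12.58 in the 4T1 arrays and 7.01, 7.05 and 6.83 in the DR500 arrays, was not.

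Regulators of the epithelial state fell in part. Of 31 measured, 15 fell (48.4%) and 6 rose. The splicing factor Esrp1 was 10.74, 10.71 and 10.67 in the 4T1 arrays and 5.58, 5.11 and 5.04 in the DR500 arrays, and its relative Esrp2 was 8.88, 8.71 and 8.79 in the 4T1 arrays and 7.23, 7.23 and 7.48 in the DR500 arrays. Both fell, Esrp1 by 44.1-fold and Esrp2 by 2.79-fold. Grhl2, a transcription factor that drives junction genes, was 8.83, 8.73 and 8.83 in the 4T1 arrays and 5.71, 5.41 and 5.71 in the DR500 arrays, a 9.11-fold fall (adjusted p = 1.25e-09), and the ETS factor Ehf (-2.37), the clathrin adaptor subunit Ap1m2 (-2.74) and the protease St14 (-2.09) fell too. Other epithelial factors did not pass the test, among them Klf5 (0.04), Grhl1 (0.01) and Elf3 (-0.26), and Gata3 (0.57) and Tfap2a (0.76) rose. Muc1, a mucin of the apical surface, went against the list, at 6.52, 6.39 and 6.64 in the 4T1 arrays and 8.99, 8.96 and 9.11 in the DR500 arrays, a 5.67-fold rise (adjusted p = 2.77e-09).

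Promoters of junction genes that fell are shown because members of this list moved together and several carry the E-box CACCTG, the sequence that EMT repressors of the Snail and Zeb families can bind. The 250 bases before the RefSeq start site (GRCm38.p6) were searched on both strands, in 15614 tested genes with an entry. The E-box was present in 16.6% of all these promoters and in 12 of the 31 junction genes with an entry (38.7%), 10 of them among the 23 that had risen or fallen. The match describes the letters in this window and is no measured binding site. The capitals mark the E-box on either strand.
Cldn4, chr5:134946935-134947184, minus strand: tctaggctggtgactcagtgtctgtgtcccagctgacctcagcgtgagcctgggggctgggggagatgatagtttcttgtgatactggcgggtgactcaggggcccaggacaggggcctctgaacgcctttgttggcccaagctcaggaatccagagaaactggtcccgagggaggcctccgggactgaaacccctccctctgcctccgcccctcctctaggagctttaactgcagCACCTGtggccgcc
Epcam, chr17:87635729-87635978, plus strand: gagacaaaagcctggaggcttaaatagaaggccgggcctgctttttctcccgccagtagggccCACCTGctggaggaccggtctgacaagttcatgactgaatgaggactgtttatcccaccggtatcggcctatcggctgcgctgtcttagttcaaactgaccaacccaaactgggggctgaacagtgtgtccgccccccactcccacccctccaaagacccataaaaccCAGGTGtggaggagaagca
Rab25, chr3:88548280-88548529, minus strand: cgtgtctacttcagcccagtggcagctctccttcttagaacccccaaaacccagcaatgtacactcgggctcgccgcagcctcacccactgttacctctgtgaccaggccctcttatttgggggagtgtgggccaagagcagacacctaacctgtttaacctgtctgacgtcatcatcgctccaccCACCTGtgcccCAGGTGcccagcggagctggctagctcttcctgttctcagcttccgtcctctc

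The transcription factors of EMT differed among themselves. Of 16 measured, 7 rose and 2 fell. Snai1 was 9.13, 9.15 and 9.10 in the 4T1 arrays and 10.56, 10.38 and 10.45 in the DR500 arrays, a 2.53-fold rise (adjusted p = 5.49e-08), and Zeb2 was 8.12, 8.01 and 8.13 in the 4T1 arrays and 9.56, 9.47 and 9.70 in the DR500 arrays, a 2.81-fold rise (adjusted p = 3.10e-07). Zeb1 was 6.54, 6.54 and 6.57 in the 4T1 arrays and 6.28, 5.92 and 5.97 in the DR500 arrays and fell, by 1.41-fold (adjusted p = 9.05e-04). Twist1 (0.47) and Foxc2 (0.45) rose by under 2-fold, and Snai2 (-0.04) and Twist2 (0.11) did not pass the test. Zeb2 and Snai1 were therefore the members with a rise above 2-fold, while Zeb1 lay near the array median in both lines.

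Of 26 mesenchymal marker genes, 13 rose (50%) and 2 fell, with a median of 0.23 against 0.07 over all genes. The PDGF receptor Pdgfra was 8.43, 8.34 and 8.36 in the 4T1 arrays and 10.14, 10.04 and 10.04 in the DR500 arrays, a 3.25-fold rise (adjusted p = 8.55e-08). Sparc (1.19), a matrix glycoprotein, and the lysyl oxidases Lox (1.08) and Loxl1 (1.59) also rose by over 2-fold. The classical intermediate filament and matrix markers moved little. Vim was 13.52, 13.51 and 13.46 in the 4T1 arrays and 13.83, 13.82 and 13.87 in the DR500 arrays, and Fn1 was 12.99, 12.92 and 12.89 in the 4T1 arrays and 13.26, 13.24 and 13.30 in the DR500 arrays. Vim and Fn1 were among the brightest genes of 4T1 already, and rose by 1.27-fold and 1.26-fold. Cdh2, which encodes N-cadherin, stayed below the array median, at 4.70, 4.68 and 4.59 in the 4T1 arrays and 4.96, 4.78 and 4.66 in the DR500 arrays (log2 fold change 0.14 ± 0.08, adjusted p = 0.185). Postn (-0.97) and Nt5e (-0.56) fell. Fbln1, a matrix protein of fibroblasts, was 7.92, 8.004 and 7.89 in the 4T1 arrays and 11.49, 11.71 and 11.72 in the DR500 arrays, a 13-fold rise (adjusted p = 1.01e-09).

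Most genes of the contractile apparatus rose. Of 37 genes of the SRF and actin list, which holds targets of serum response factor and structural actin genes, 22 rose (59.5%) and 3 fell, with a median of 0.45. Tpm2, a muscle-type tropomyosin, was 6.45, 6.51 and 6.24 in the 4T1 arrays and 9.71, 9.85 and 9.85 in the DR500 arrays, a 10.6-fold rise (adjusted p = 5.99e-10). Smooth muscle actins rose too. Actg2 was 6.003, 5.80 and 5.84 in the 4T1 arrays and 8.05, 7.87 and 7.79 in the DR500 arrays, and Acta2 was 6.43, 6.23 and 5.82 in the 4T1 arrays and 7.96, 7.85 and 7.72 in the DR500 arrays. Tagln (1.24) and filamin C, Flnc (1.18), rose by over 2-fold, as did Lpp (1.13). The other tropomyosin genes of the list, Tpm1 (-0.03), Tpm3 (0.02) and Tpm4 (0.005), and the actin gene Actb (0.08) did not pass the test. Non-muscle myosin chains diverged, as Myh9 (0.56) rose and Myh10 (-0.68) fell.

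YAP and TEAD target genes showed no common direction, with 10 of 28 rising and 11 falling. The matricellular gene Ccn2, a widely used target, was 11.89, 11.91 and 11.98 in the 4T1 arrays and 8.52, 8.59 and 8.72 in the DR500 arrays, a 9.97-fold fall (adjusted p = 3.05e-10), and Ankrd1 was 11.77, 11.76 and 11.70 in the 4T1 arrays and 9.28, 9.22 and 9.55 in the DR500 arrays, a 5.26-fold fall (adjusted p = 3.25e-08). Ccn1 (-0.75) and Ajuba (-1.14) fell too. The factors themselves rose modestly, with Yap1 (0.40), Wwtr1 (0.64), which encodes TAZ, Tead1 (0.60) and Tead2 (0.63). Foxf2, a mesenchymal forkhead factor in this list, was 5.49, 5.47 and 5.33 in the 4T1 arrays and 7.72, 7.62 and 7.93 in the DR500 arrays, a 5.02-fold rise (adjusted p = 1.28e-08).

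Of 34 genes of IL-6 family receptors and the STAT3 pathway, 25 rose (73.5%) and 5 fell, with a median of 0.49. Among the receptors, Osmr, the oncostatin M receptor, was 8.51, 8.48 and 8.52 in the 4T1 arrays and 11.55, 11.67 and 11.74 in the DR500 arrays, an 8.9-fold rise (adjusted p = 5.44e-10), beside the rise of Lifr given above. Their shared signalling chain gp130, Il6st (0.96), the kinases Jak1 (0.94) and Jak2 (0.39), and Stat3 (1.74) rose as well. The receptor chain Il4ra was 8.96, 9 and 8.90 in the 4T1 arrays and 11.26, 11.17 and 11.21 in the DR500 arrays, a 4.78-fold rise (adjusted p = 7.45e-10). Of the ligands, Il11 (1.83) rose and Lif (-0.60) fell, while Osm (0.17) did not pass the test. Il6 was 3.76, 3.55 and 3.70 in the 4T1 arrays and 4.57, 5.01 and 5.28 in the DR500 arrays, a rise of 2.43-fold that stayed below the array median. Socs3, the feedback inhibitor of gp130 signalling, was 8.45, 8.49 and 8.55 in the 4T1 arrays and 11.01, 10.87 and 10.95 in the DR500 arrays, a 5.45-fold rise (adjusted p = 3.37e-09), whereas Socs2 (-0.94) and Myc (-0.67) fell. Acute phase protein genes, many of them targets of this pathway in liver, rose in 18 of 31 cases (58.1%) and fell in 0 by limma, with 0 also at an unadjusted p under 0.05.

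Promoters of a feedback gene and of a large rise of this group are shown with the STAT-type motif TTCNNNGAA in capitals. In the same windows it was present in 6.70% of all promoters, in 2 of 26 genes of the IL-6 and STAT3 list with an entry (7.69%), and in 6 of 25 acute phase genes with an entry (24.0%).
Socs3, chr11:117969367-117969616, minus strand: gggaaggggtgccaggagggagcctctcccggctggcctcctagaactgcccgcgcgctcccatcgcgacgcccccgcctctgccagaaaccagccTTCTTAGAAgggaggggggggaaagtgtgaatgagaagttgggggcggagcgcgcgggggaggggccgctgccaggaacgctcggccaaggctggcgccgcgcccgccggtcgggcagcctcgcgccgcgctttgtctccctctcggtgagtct
Steap4, chr5:7960222-7960471, plus strand: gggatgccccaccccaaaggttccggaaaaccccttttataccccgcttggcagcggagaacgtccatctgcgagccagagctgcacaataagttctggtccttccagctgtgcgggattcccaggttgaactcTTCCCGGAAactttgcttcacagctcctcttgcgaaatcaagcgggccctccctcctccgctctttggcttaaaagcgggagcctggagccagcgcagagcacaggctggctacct

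Of 33 coagulation and fibrinolysis genes, 11 rose (33.3%) and 1 fell, and 19 rose when the arrays were centred on their medians. Besides F5, the transglutaminase chain F13a1 was 6.85, 6.62 and 6.86 in the 4T1 arrays and 10.60, 10.54 and 10.53 in the DR500 arrays, a 13.8-fold rise (adjusted p = 2.25e-10), and Pros1, which encodes the anticoagulant protein S, was 6.70, 6.69 and 6.75 in the 4T1 arrays and 8.95, 8.997 and 9.27 in the DR500 arrays, a 5.13-fold rise (adjusted p = 1.44e-07). Tissue plasminogen activator, Plat (1.41), rose, and the tissue factor inhibitor Tfpi (-1.01) fell. Complement genes rose in 10 of 29 cases (34.5%) and fell in 3. Masp1, a protease of the lectin pathway, was 7.45, 7.45 and 7.27 in the 4T1 arrays and 10.34, 10.24 and 10.39 in the DR500 arrays, a 7.63-fold rise (adjusted p = 7.17e-10), and the classical pathway genes C1s1 (2.08), C1ra (0.98) and C4b (1.71) rose together with the inhibitor Serping1 (0.98).

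Most genes of the anthracycline list rose, and handling of doxorubicin by the cells was not measured. Of 31 genes of anthracycline targets, uptake and reduction, 20 rose (64.5%, against 20.2% of all genes) and 4 fell, with a median of 0.38. The targets themselves did not rise beyond 2-fold. Top2a was 12.004, 11.95 and 11.94 in the 4T1 arrays and 11.81, 11.85 and 11.95 in the DR500 arrays (log2 fold change -0.10 ± 0.06, adjusted p = 0.259), and Top2b was 8.95, 8.89 and 8.88 in the 4T1 arrays and 8.15, 8.03 and 8.55 in the DR500 arrays, a 1.58-fold fall (adjusted p = 0.00136). Top1 (0.43), the target of camptothecins, and the repair enzyme Tdp1 (0.27) rose, and Tdp2 (-0.28), which repairs topoisomerase II adducts, fell. Top2a therefore stayed among the brighter genes in both lines, with overlapping arrays.

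Enzymes that reduce carbonyls and quinones gave the largest values of this group. Akr1c18, an aldo-keto reductase known for its steroid substrate, was 4.50, 4.73 and 4.57 in the 4T1 arrays and 7.96, 8.51 and 8.41 in the DR500 arrays, a 12.9-fold rise (adjusted p = 1.60e-08). Aldh3a1, an aldehyde dehydrogenase, was 7.85, 8.001 and 7.82 in the 4T1 arrays and 11.07, 11.10 and 11.09 in the DR500 arrays, a 9.14-fold rise (adjusted p = 3.47e-10), and the quinone reductase Nqo1 was 8.07, 8.14 and 8.41 in the 4T1 arrays and 10.25, 10.47 and 10.30 in the DR500 arrays, a 4.38-fold rise (adjusted p = 4.03e-08). Xdh, xanthine dehydrogenase, rose by 7.59-fold. Carbonyl reductases diverged, since Cbr3 was 5.41, 5.38 and 5.12 in the 4T1 arrays and 7.11, 7.01 and 7.22 in the DR500 arrays, and Cbr4, a mitochondrial member, was 9.62, 9.67 and 9.70 in the 4T1 arrays and 7.91, 8.12 and 8.10 in the DR500 arrays. Cbr3 rose by 3.5-fold and Cbr2 (1.72) and Cbr1 (0.53) rose as well, while Cbr4 fell by 3.08-fold. Members of the Akr1c family are close in sequence, so that their signals may not be separate: Akr1c13 (1.71) rose, and Akr1c12 (0.35) and Akr1c19 (0.13) did not pass the test.

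Of 20 efflux pump genes, 12 rose (60%) and 2 fell. The doxorubicin exporter P-glycoprotein is encoded by a pair of mouse genes. Abcb1b was 10.04, 10.05 and 10.04 in the 4T1 arrays and 11.33, 11.41 and 11.36 in the DR500 arrays, a 2.5-fold rise (adjusted p = 1.98e-08), and Abcb1a was 6.81, 6.86 and 6.78 in the 4T1 arrays and 7.78, 8.25 and 8.22 in the DR500 arrays, a 2.4-fold rise (adjusted p = 6.34e-06). Abcg2, the breast cancer resistance protein, was 6.14, 6.31 and 6.44 in the 4T1 arrays and 7.15, 7.49 and 7.61 in the DR500 arrays, a 2.17-fold rise (adjusted p = 2.02e-05). The arrays of the lines did not overlap in these 3 genes, and each rise was below 3-fold. Of all 19938 genes tested, 5128 were higher in DR500 without overlap. The Abcb1 genes are close in sequence, so their probes can share signal. Abcc1, another doxorubicin exporter, was 9.97, 9.79 and 9.79 in the 4T1 arrays and 9.96, 10.004 and 9.96 in the DR500 arrays (log2 fold change 0.12 ± 0.06, adjusted p = 0.148). The largest rise of the list was in a lipid pump, Abca1, at 5.56, 5.59 and 5.54 in the 4T1 arrays and 7.54, 7.56 and 7.83 in the DR500 arrays, 4.23-fold (adjusted p = 2.42e-08), and the mitochondrial transporters Abcb10 (-1.25) and Abcb8 (-0.80) fell.

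Of 43 redox and glutathione genes, 25 rose (58.1%) and 5 fell. Glutathione transferases gave many of the larger rises, with Gstm1 at 9.58, 9.46 and 9.41 in the 4T1 arrays and 11.90, 12.07 and 12.21 in the DR500 arrays, a 5.97-fold rise (adjusted p = 6.03e-09), and further rises of Mgst1 (1.91), Gsta4 (1.62) and Gstm2 (1.502). Sod3, the extracellular superoxide dismutase, was 6.71, 6.43 and 6.76 in the 4T1 arrays and 9.56, 9.83 and 9.92 in the DR500 arrays, an 8.8-fold rise (adjusted p = 2.28e-08), and the mitochondrial Sod2 (1.19) rose by over 2-fold. Txnip, an inhibitor of thioredoxin that responds to glucose, was 7.95, 7.75 and 8.01 in the 4T1 arrays and 11.54, 11.54 and 11.56 in the DR500 arrays, a 12.5-fold rise (adjusted p = 4.07e-10). Nfe2l2, the regulator Nrf2, rose by 1.81-fold with its targets Srxn1 (1.45), Gclc (0.74) and Slc7a11 (0.77), while other targets moved little, with Hmox1 (0.31), Txnrd1 (0.10) and Gsr (0.01). Transferrin receptor, Tfrc (-1.01), and Gstm5 (-0.87) fell.

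Among genes of the DNA damage response, p53 targets had no common direction, and more DNA repair genes fell than rose. Of 31 p53 target genes 8 rose (25.8%) and 10 fell (32.3%), with a median of -0.08. Perp (-2.57), Ddb2 (-0.97), Ccng1 (-0.95) and Mdm2 (-0.60) fell, while Ephx1 (1.97) and Trp53inp1 (1.22) rose by over 2-fold. DNA repair genes fell in 22 of 58 cases (37.9%) and rose in 11 (19%), with a median of -0.11. Among genes with a mean log2 value above 8, 37.7% fell and 30.9% rose. Ercc1, a nuclease subunit of excision and crosslink repair, was 12.23, 12.25 and 12.25 in the 4T1 arrays and 11.01, 10.88 and 10.96 in the DR500 arrays, a 2.45-fold fall (adjusted p = 4.58e-08). The checkpoint kinase Atr was 8.64, 8.66 and 8.68 in the 4T1 arrays and 7.44, 7.42 and 7.65 in the DR500 arrays, and Brca2 was 8.51, 8.52 and 8.42 in the 4T1 arrays and 7.42, 7.27 and 7.47 in the DR500 arrays. Both fell by over 2-fold, as did Fancb (-1.18). No repair gene rose by over 2-fold, with Polh (0.57), a polymerase that bypasses lesions, as the member that rose most.

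Of 64 cell cycle genes, 20 rose (31.2%) and 17 fell (26.6%). Only Ccnd2 changed by over 2-fold, at 10.56, 10.65 and 10.64 in the 4T1 arrays and 7.21, 6.91 and 6.81 in the DR500 arrays, a 12.5-fold fall (adjusted p = 9.36e-10). The other D cyclins rose by under 2-fold, Ccnd1 (0.36) and Ccnd3 (0.61), with Ccne1 (0.95) and Cdk6 (0.69). Mki67, which encodes the proliferation marker Ki-67, was 11.09, 11.01 and 10.91 in the 4T1 arrays and 11.23, 11.03 and 11.30 in the DR500 arrays (log2 fold change 0.18 ± 0.08, adjusted p = 0.107), with overlapping arrays.

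**Figure D2:**
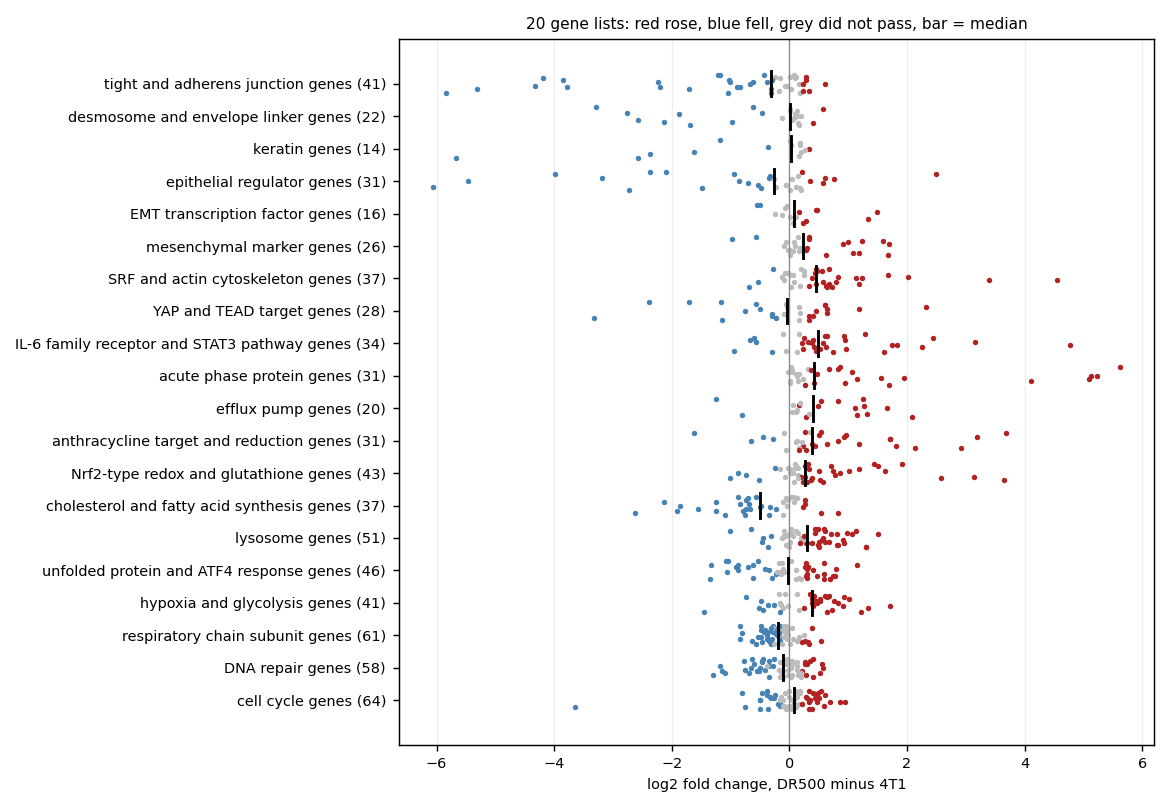
Log2 fold change, DR500 minus 4T1 (x axis), of every measured member of 20 gene lists, with the number of members in brackets; red points rose and blue points fell at an adjusted p under 0.05, grey points did not pass, and the black bar is the median of the list. The junction and cholesterol lists have most points on the left, at medians of -0.32 and -0.50, and the IL-6 and STAT3 list has most on the right, at 0.49.

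Sterol synthesis had the highest share of falls among the 52 lists counted. Of 37 cholesterol and fatty acid synthesis genes, 23 fell (62.2%, against 21.3% of all genes) and 5 rose, with a median of -0.50. Insig1, which retains the sterol sensor SCAP in the endoplasmic reticulum and itself rises when sterols are low, was 11.70, 11.65 and 11.68 in the 4T1 arrays and 9.08, 9.02 and 9.05 in the DR500 arrays, a 6.17-fold fall (adjusted p = 9.60e-10). Enzymes along the path fell with it. Hmgcs1, an early enzyme, was 9.89, 9.84 and 9.87 in the 4T1 arrays and 8.62, 8.61 and 8.63 in the DR500 arrays. Idi1, which isomerizes isoprene units, was 10.18, 10.13 and 10.23 in the 4T1 arrays and 7.95, 8.47 and 8.56 in the DR500 arrays, and Cyp51, a late demethylase, was 9.64, 9.54 and 9.71 in the 4T1 arrays and 7.49, 7.73 and 7.97 in the DR500 arrays. In these genes every DR500 array was below every 4T1 array, as it was in 4866 of all 19938 genes. Msmo1 fell by 4.37-fold, and Lss (-1.09), Mvk (-0.87), Fdps (-0.83), Mvd (-0.74) and Sqle (-0.496) fell by smaller amounts. The sterol carrier Stard4 (-1.56) and the desaturase Fads2 (-1.25) fell too. Fatty acid genes were divided, since Acaca (-0.76), Acly (-0.67) and Fasn (-0.23) fell, and Scd1 (0.83) and Elovl1 (0.55) rose. The sterol exporters rose, Abca1 as given above and Abcg1 (0.83) by under 2-fold.

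The promoter of Hmgcs1 is shown with the letters TCACNCCAC, a form of the sterol response element, in capitals. This form was present in 0.993% of all promoters and in 1 of 30 cholesterol and fatty acid genes with an entry (3.33%), which is Hmgcs1.
Hmgcs1, chr13:119690101-119690350, plus strand: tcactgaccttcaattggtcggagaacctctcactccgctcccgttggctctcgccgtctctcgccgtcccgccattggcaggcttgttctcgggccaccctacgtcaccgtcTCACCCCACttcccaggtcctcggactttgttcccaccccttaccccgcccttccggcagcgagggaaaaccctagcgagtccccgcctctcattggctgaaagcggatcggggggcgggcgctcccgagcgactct

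Lysosomal genes rose in 30 of 51 cases (58.8%) and fell in 6, with a median of 0.29. The acid lipase Lipa, which frees cholesterol from its esters, was 8.57, 8.43 and 8.61 in the 4T1 arrays and 9.95, 10.09 and 10.12 in the DR500 arrays, a 2.86-fold rise (adjusted p = 2.83e-07). The protease cathepsin D, Ctsd, was 11.41, 11.38 and 11.41 in the 4T1 arrays and 12.71, 12.66 and 12.76 in the DR500 arrays, a 2.47-fold rise (adjusted p = 5.57e-08). Legumain, Lgmn (1.30), the peptidase Tpp1 (1.14) and the cholesterol transporters Npc1 (0.83) and Npc2 (0.44) rose, along with Tfeb (0.39), a regulator of lysosomal genes. Among the few falls were Ids (-1.01) and Ctsh (-0.65).

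Stress response genes separated by function. Of 46 unfolded protein and ATF4 response genes, 18 rose (39.1%) and 16 fell (34.8%), with a median of -0.03. The falls held the serine and one-carbon enzymes that ATF4 drives. Psat1, of serine synthesis, was 12.43, 12.38 and 12.43 in the 4T1 arrays and 11.09, 11.11 and 11.02 in the DR500 arrays, a 2.53-fold fall (adjusted p = 2.10e-08), and the mitochondrial folate enzyme Mthfd2 was 11.17, 11.22 and 11.20 in the 4T1 arrays and 10.24, 10.07 and 10.03 in the DR500 arrays, a 2.12-fold fall (adjusted p = 5.05e-07). Psph (-1.07), Phgdh (-0.87), Shmt2 (-1.04), Aldh1l2 (-1.34) and asparagine synthetase, Asns (-0.91), fell with Atf4 (-0.53) itself and the stress factors Ddit3 (-0.70) and Trib3 (-0.87). The rises held chaperones and folding enzymes of the endoplasmic reticulum, Dnajc3 (0.79), Creld2 (0.69), Pdia6 (0.59), Pdia4 (0.46) and Hyou1 (0.32), with Xbp1 (0.32) and Atf6 (0.29). The division by function was made after the values were seen. Cebpb, a factor of both stress and acute phase responses, was 9.13, 9.22 and 9.19 in the 4T1 arrays and 10.35, 10.40 and 10.24 in the DR500 arrays, a 2.22-fold rise (adjusted p = 2.02e-07).

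The promoter of Asns is shown with the letters TGATGNAA, a core that ATF4 can bind, in capitals. They were present in 2.77% of all promoters and in 6 of 38 genes of the stress list with an entry (15.8%).
Asns, chr6:7693210-7693459, minus strand: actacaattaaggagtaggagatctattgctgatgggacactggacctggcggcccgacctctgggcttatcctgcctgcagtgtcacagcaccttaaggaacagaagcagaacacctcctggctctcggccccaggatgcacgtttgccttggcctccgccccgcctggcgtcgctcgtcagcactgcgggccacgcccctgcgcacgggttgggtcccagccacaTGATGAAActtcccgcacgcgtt

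The energy metabolism lists had medians of opposite sign. Of 41 hypoxia and glycolysis genes, 25 rose (61.0%) and 8 fell, with a median of 0.39. Glucose transporter Slc2a1 (0.75), Hk2 (0.60), the phosphofructokinases Pfkp (0.92) and Pfkm (0.72) and the regulator Pfkfb3, at 7.58, 7.43 and 7.53 in the 4T1 arrays and 8.80, 8.81 and 8.94 in the DR500 arrays, rose, while Hk1 (-0.52) fell. P4ha2, a collagen prolyl hydroxylase, was 6.41, 6.39 and 6.55 in the 4T1 arrays and 8.24, 8.15 and 8.11 in the DR500 arrays, a 3.29-fold rise (adjusted p = 1.18e-08). Among other genes known to respond to low oxygen, Egln3 (1.22), Car12 (0.83), Ndrg1 (0.64) and Vegfa (0.47) rose, whereas Car9 (-0.44), Adm (-1.44) and Ddit4 (-0.74) fell. Nuclear-encoded respiratory chain subunits fell in 34 of 61 cases (55.7%) and rose in 6 (9.84%), with a median of -0.19, and none by over 2-fold. Ndufs8, of complex I, was 12.10, 12.12 and 12.19 in the 4T1 arrays and 11.36, 11.26 and 11.26 in the DR500 arrays, a 1.79-fold fall (adjusted p = 8.32e-07), and Cox4i1 (-0.81), of complex IV, fell by a like amount.

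**Figure D3:**
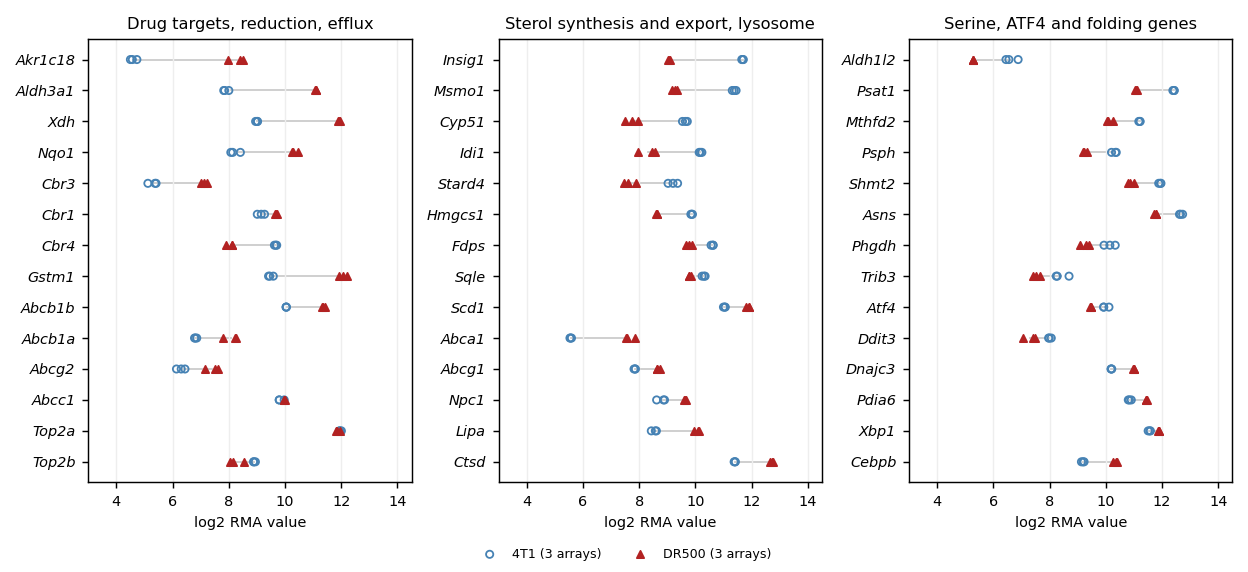
Log2 RMA values (x axis) of genes of drug targets, reduction and efflux (left), of sterol metabolism and the lysosome (middle) and of serine synthesis, ATF4 and protein folding (right), with open circles for the 3 4T1 arrays and triangles for the 3 DR500 arrays. The arrays of the lines do not overlap in the 8 sterol genes from Insig1 to Sqle, all lower in DR500, whereas those of Top2a do overlap. Of all 19938 genes tested, 4866 were lower in DR500 without overlap.

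Growth factor genes held large single changes. Among 16 genes of the EGF receptor family and its ligands, 7 fell (43.8%) and 4 rose. The receptor Erbb3 was 8.89, 8.82 and 8.82 in the 4T1 arrays and 6.18, 5.55 and 5.98 in the DR500 arrays, a 7.67-fold fall (adjusted p = 4.54e-08), and Erbb2 (-0.65) fell by less. The ligands Epgn (-2.21) and Hbegf (-1.30) fell by over 2-fold, while Tgfa (0.58) and Nrg1 (0.46) rose. Of 46 TGF-beta and activin pathway genes, 22 rose (47.8%) and 10 fell. The activin chain Inhba was 10.24, 10.21 and 10.24 in the 4T1 arrays and 6.79, 6.93 and 7.07 in the DR500 arrays, a 9.84-fold fall (adjusted p = 5.73e-10), and Bmp7 (-2.12) fell, while Tgfb1 (0.69), Smad3 (1.14), Tgfbr3 (1.73) and the target Id1 (1.58) rose. The Wnt ligand Wnt7a was 9.08, 9.02 and 9.12 in the 4T1 arrays and 5.78, 5.83 and 5.71 in the DR500 arrays, a 9.84-fold fall (adjusted p = 3.05e-10). The ligand of the receptor Tie2, Angpt1, was 6.18, 5.91 and 6.10 in the 4T1 arrays and 9.46, 9.48 and 9.77 in the DR500 arrays, an 11.4-fold rise (adjusted p = 4.26e-09), and Neurl1b, a ubiquitin ligase for Notch ligands, was 7.24, 7.20 and 6.98 in the 4T1 arrays and 11.03, 10.93 and 10.92 in the DR500 arrays, a 14.2-fold rise (adjusted p = 3.05e-10).

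Of 33 genes of matrix metalloproteinases, related proteases and their inhibitors, 19 rose (57.6%) and 3 fell. Mmp19 was 5.30, 5.14 and 4.97 in the 4T1 arrays and 8.91, 8.66 and 9.004 in the DR500 arrays, a 13.2-fold rise (adjusted p = 9.42e-09). The stromelysins Mmp3 (1.003) and Mmp10 (1.75), the gelatinase Mmp9 (1.001) and the inhibitors Timp1 (0.62) and Timp2 (0.501) rose, whereas Adam12 (-1.55) fell by over 2-fold and Mmp13 (-0.43) by less. Of 53 collagen and matrix genes, 19 rose (35.8%) and 6 fell. Among 23 integrin subunits 6 rose and 6 fell, with Itgb6 (-2.42), a subunit of epithelia, and Itgb7 (2.76) as the largest differences in either direction.

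Of 21 genes of nucleic acid sensing, 9 rose and 7 fell. Casp1, the protease of the inflammasome, which is not in this list, was 8.03, 8.16 and 8.41 in the 4T1 arrays and 9.96, 10.32 and 10.31 in the DR500 arrays, a 3.98-fold rise (adjusted p = 4.05e-07), and Aim2, which detects cytosolic DNA, was 5.23, 4.97 and 5.38 in the 4T1 arrays and 6.73, 7.20 and 7.62 in the DR500 arrays, a 3.97-fold rise (adjusted p = 1.74e-05). Casp4 (1.19) and Casp12 (1.56) rose as well. Il1a, a cytokine of the IL-1 family, was 11.81, 11.87 and 11.79 in the 4T1 arrays and 8.26, 8.35 and 8.62 in the DR500 arrays, a 10.6-fold fall (adjusted p = 9.25e-10). The endosomal RNA sensor Tlr3 was 9.53, 9.45 and 9.45 in the 4T1 arrays and 7.53, 7.71 and 7.82 in the DR500 arrays, a 3.46-fold fall (adjusted p = 4.66e-08). Sting1 (0.51) rose and Cgas (-0.41) fell, both by under 2-fold.

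Markers of other cell types were examined because some genes with large rises are known from leukocytes and fibroblasts. Of 29 leukocyte markers 6 rose and 1 fell, 9 rose without DR500 3, and 12 rose with centred arrays. Of all genes 20.2% rose and 21.3% fell. In the fit with all 9 arrays, the rises of this list and of the fibroblast and endothelial lists below lay near that share. The sum of the leukocyte marker values on the linear scale was 4490 to 4676 in 4T1 and 6567 to 6929 in DR500. Of that difference 79.2% came from Cd68, and without it the sum was 4046 to 4226 in 4T1 and 4556 to 4667 in DR500. The pan-leukocyte marker Ptprc, which encodes CD45, was 5.16, 5.21 and 5.16 in the 4T1 arrays and 5.29, 5.23 and 5.21 in the DR500 arrays, below the array median in all 6 arrays (adjusted p = 0.432), and Lcp1 fell as given above. Cd68, a lysosomal protein of macrophages, was 8.69, 8.82 and 8.79 in the 4T1 arrays and 10.97, 11.08 and 11.14 in the DR500 arrays, a 4.93-fold rise (adjusted p = 2.10e-09). Of 16 fibroblast markers 4 rose, or 7 without DR500 3, and 3 fell, and their sum was 2778 to 2959 in 4T1 and 6181 to 6616 in DR500, with Fbln1 and Pdgfra as the rises over 2-fold. Without Fbln1, which made 82.5% of the difference, the sum was 2542 to 2717 in 4T1 and 3127 to 3310 in DR500. Of 18 endothelial markers 3 rose and 0 fell by limma, with 0 falls also at an unadjusted p under 0.05, and the rises were under 2-fold. Their sum was 2751 to 2896 in 4T1 and 4074 to 4649 in DR500, with 85.3% of the difference from Eng, and 1263 to 1363 and 1486 to 1625 without it. The sums without 1 gene were added after the values were seen. The part of other cells in these values was not tested.

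DR500 was also set against MR20, the line selected with methotrexate, in the same fit, for genes named above and for Pard3 and Crb3, which were chosen after their values were seen. Among junction genes that fell against 4T1, the log2 difference DR500 minus MR20 was -5.46 ± 0.16 for Cldn4 (adjusted p = 1.73e-09) and -3.73 ± 0.08 for Cdh1 (adjusted p = 1.70e-10). It was 0.20 ± 0.06 for the polarity gene Pard3 (adjusted p = 0.018), which was higher in DR500 than in MR20, and -0.07 ± 0.15 for Crb3 (adjusted p = 0.727). Lifr differed by 4.38 ± 0.12 (adjusted p = 1.04e-09), Steap4 by 2.16 ± 0.06 (adjusted p = 1.90e-09) and F5 by 6.07 ± 0.10 (adjusted p = 7.23e-11). In sterol synthesis, Insig1 differed by -1.08 ± 0.07 (adjusted p = 4.70e-07) and Hmgcs1 by -1.37 ± 0.06 (adjusted p = 3.33e-08). The MR20 values of Insig1 were 10.23, 10.000 and 10.17. Of the pumps, Abcb1b differed by 2.77 ± 0.05 (adjusted p = 1.31e-10), with 8.63, 8.60 and 8.56 in the MR20 arrays, and Abcb1a by 2.11 ± 0.11 (adjusted p = 1.26e-07), with 6.002, 5.92 and 5.99. Abcg2 was lower in DR500 than in MR20, with a log2 difference of -1.72 ± 0.11 (adjusted p = 8.09e-07), with 9.12, 9.17 and 9.12 in the MR20 arrays. The reductase Akr1c18 differed by -0.63 ± 0.14 (adjusted p = 0.00437), and Nqo1 by 1.26 ± 0.09 (adjusted p = 1.59e-06).

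The difference between DR500 and 4T1 also varied by chromosome. This pattern was looked for after gene-level values had been seen. Over 7847 protein-coding genes with a mean log2 value above 8, for which 30.9% rose and 37.7% fell and the median log2 fold change was -0.05, the median of each chromosome was taken in each array relative to the 4T1 mean. Chromosome 19 had medians of -0.45, -0.45 and -0.42 in the 3 DR500 arrays, and 197 of its 272 genes fell (72.4%). Chromosome 8 had medians of -0.40, -0.40 and -0.37, with 302 of 438 genes falling (68.9%), and chromosome 10 had -0.41, -0.41 and -0.34, with 292 of 407 (71.7%). Chromosomes 18 (-0.37, -0.38 and -0.31) and X (-0.46, -0.38 and -0.38) were low in the same way. Chromosome 2 was the highest, with medians of 0.28, 0.27 and 0.31, and 392 of its 650 genes rose (60.3%). Chromosomes 17, 7 and 15 had overall medians of 0.18, 0.16 and 0.15, and the other chromosomes lay between -0.15 and 0.05. With dim genes included, over all protein-coding genes, the medians shrank to -0.08 on chromosome 8, -0.06 on chromosome 10 and 0.13 on chromosome 2, and X stood at 0.02. The 4T1 arrays lay within -0.02 and 0.02 of their own mean, which was the reference, on every chromosome. On chromosomes 2, 8, 10, 18, 19 and X the difference exceeded the spread between the wells of either line. MR20 differed from 4T1 by chromosome too, for example by -0.42 on chromosome 14 and 0.26 on chromosome 13.

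**Figure D4:**
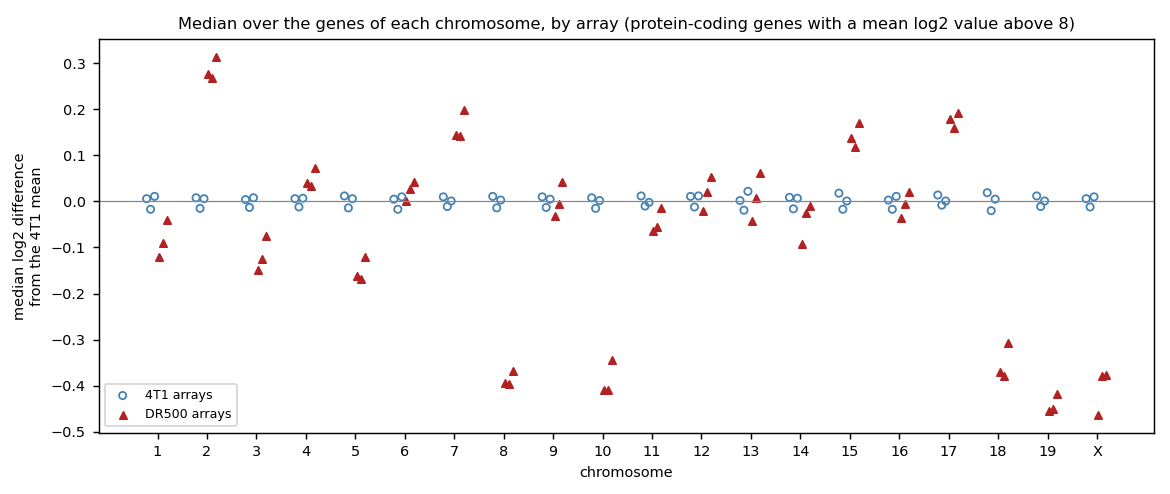
Median log2 difference from the mean of the 4T1 arrays (y axis) over the protein-coding genes of each chromosome (x axis) with a mean log2 value above 8, with open circles for the 3 4T1 arrays and triangles for the 3 DR500 arrays. Chromosomes 8, 10, 18, 19 and X lie between -0.31 and -0.46 in every DR500 array, and chromosome 2 between 0.27 and 0.31.

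Against MR20 some of these chromosomes stood apart too, with median differences DR500 minus MR20 of -0.45 on chromosome 10 and -0.51 on X, but of -0.11 on chromosome 8, which was also lower in MR20 than in 4T1 (-0.30). On chromosome 17 the difference from MR20 was 0.47, where MR20 lay below 4T1 (-0.29). Numbers of chromosomes or gene copies were not measured here.

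On 4 chromosomes the shift reached every stretch. Genes were put in the order of the RefSeq annotation and divided into blocks of about 40. On chromosome 8, 11 of 11 blocks had a median below -0.2, as did 10 of 10 blocks of chromosome 10, 5 of 5 of chromosome 18, 7 of 7 of chromosome 19 and 4 of 5 of X. On chromosome 2, 11 of 16 blocks lay above 0.2 and the lowest lay at 0.09. Low blocks also occurred elsewhere, in 5 of 13 blocks of chromosome 5 and in at most 3 blocks of any other chromosome. The first block of chromosome 3, from Zc2hc1a to Exosc9, had a median of -0.52, with 27 of 41 genes falling, and the last block of chromosome 5, from Fam220a to Rfc3, had -0.44, with 33 of 39 genes falling. The lowest block of chromosome 10 was its first, from Mthfd1l to Myb, at -0.67. The longest run of neighbours that all rose was one of 10 genes on chromosome 2 that include the homeobox gene Prrx2 and Ptges, which encodes a prostaglandin synthase. Another run of 9 on the same chromosome includes Snai1 and Cebpb, at the values given above.

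The gene lists were set against these shifts by taking the median of each gene's chromosome from its log2 fold change. These medians were those over genes with a mean log2 value above 8, and were taken from dimmer members too. With dim genes included the medians of the low chromosomes were smaller, for example -0.08 on chromosome 8. The moves below may therefore be too large for lists with many dim members. The median of the junction list was then -0.31, and that of the IL-6 and STAT3 list 0.46. The cholesterol and fatty acid list, with 8 of its 37 genes on chromosomes 8, 10, 18 and 19, moved from -0.50 to -0.29. Of its 29 genes on other chromosomes 16 fell. Here and below, the other chromosomes include X, which was low too, so these counts are not free of the shifts. The respiratory chain list, with 13 of 61 genes on those chromosomes, stayed at -0.19, and the lysosome list moved from 0.29 to 0.33. The list of mesenchymal markers moved from 0.23 to 0.40, and that of desmosome genes from 0.009 to 0.07. The unfolded protein and ATF4 list turned from -0.03 to 0.16, with 10 of 35 genes on other chromosomes falling. In the nucleic acid sensing list, 2 of the 15 genes on other chromosomes fell, against 7 of 21 in all.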

How the data were processed

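The deposited values were used as the authors left them, as log2 intensities. The authors had run RMA in the package affy, in which background is corrected, arrays are brought to common quantiles and each probe set is summarised. Versions were not given in the sources used here, and the study's annotation was NCBI Build 36. Of 35556 probe sets, 21789 had 1 gene symbol, 21698 of them named through their Entrez identifier, 1621 had several and 12146 had none listed. In 999 genes with several probe sets the brightest was used. A single limma 3.58.1 fit in R 4.3.3 held all 9 arrays with a mean per line, with 6 residual degrees of freedom before moderation, and p-values were adjusted over 19938 genes. The number of arrays limits the precision, since 3 against 3 arrays allow no exact permutation p under 0.1 for a single gene.

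Genes were named by rule as the 15 largest rises and falls among genes past 2-fold whose arrays did not overlap, the 4 most changed members of each of 52 lists, and key members; others were chosen after their values were seen. Members and lists were chosen with earlier results of these data known. Of 1842 listed names, 1713 matched a gene tested, and the others were not analysed here. Promoters came from RefSeq (GRCm38.p6), the first listed start per gene. The fit was tested on simulated data. Alternatives are given below.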

Additional observations from a re-analysis of the deposited data

Results flagged for a closer look

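Probe sets outside the comparison, which have no single gene symbol, held differences as well. Of 12146 probe sets without a listed gene, 48 rose beyond 2-fold in DR500 (0.395%) and 817 fell (6.73%), with the largest at log2 fold changes of 5.66 and -5.35. Of 1621 probe sets listed with several symbols, 13 rose (0.802%) and 39 fell (2.41%). They are given because they lie outside the genes reported, no gene is named from them, and the cause was not tested.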

How the results depend on the processing

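The counts of genes beyond 2-fold, 492 that rose and 617 that fell, stayed within 1.5 times under the alternatives tried, except that limma's test against a 2-fold change, a stricter null hypothesis, left 282 and 303. Leaving out each array in turn gave 464 to 514 rises and 567 to 661 falls. The labels do not say that the numbers of the arrays pair them. The correlations of the deviations of same-numbered 4T1 and DR500 arrays were 0.237, -0.032 and 0.327. Those of differently numbered arrays were not taken, so these values cannot decide whether the arrays were paired. The fit with the replicate block gave 492 and 617. Repeated quantile normalization gave 576 rises and 524 falls, and centring of the arrays 554 and 544, with the median of all genes at 0.12 in both. Of 251 genes named by the rule that passed the test, 247 passed in the same direction under every alternative that tested them, and Flt1, Egfr, Prl and Atm lost the call under some, for causes not tested. Of 104 list counts, 74 stayed within 1.5 times under every alternative, and scaling moved several counts of rises, with quantile normalization giving 19 coagulation genes, 12 p53 targets, 12 leukocyte, 8 fibroblast and 7 endothelial markers. The dim filter left 12 acute phase genes that rose, since fewer were tested, and without 4T1 2 or 4T1 3 the cholesterol list held 3 rises. The EGF receptor family list held 2 rises in place of 4 with the replicate block and without 4T1 2 or DR500 2. Of the endothelial markers, 2 rose without 4T1 1, 4T1 3 or DR500 1 and 6 without DR500 3. The chromosome medians were taken again over all protein-coding genes, dim ones included, an alternative chosen after seeing the data. Chromosomes 3, 5 and X then turned to 0.038, 0.011 and 0.020. Medians nearer 0 turned as well, on chromosomes 1 (-0.066 to 0.064), 11 (-0.055 to 0.069), 14 (-0.068 to 0.061) and 16 (-0.004 to 0.08). The cause was not tested.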
